A study of Homo sapiens with 24 samples.

Results

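Confluent SW872 cells expressing YAP5SA were compared with sub-confluent SW872 cells carrying the empty vector, to ask whether active YAP in a dense culture gave the transcript levels of sparse control cells or moved past them. SW872 is an established human liposarcoma cell line. The comparison used 6 of the 24 libraries, 3 of YAP5SA and 3 of EVsub, and 19316 of the 60279 genes in the tables, those whose counts averaged 5 or more in these 6. YAP5SA cells carried a Flag-tagged YAP in which serines that the Hippo kinases phosphorylate were replaced by alanine, and were collected 48 h after reaching confluence. EVsub denotes cells with the empty vector whose library titles say sub-confluent, and EV denotes cells with the same vector taken 48 h after confluence. Levels in EV are given beside the comparison, because the YAP5SA and EVsub libraries differed in both the construct and the density of the culture. EV shares the vector with EVsub and the time after confluence with YAP5SA, so EVsub against EV gives the difference with density in vector cells and YAP5SA against EV the difference with the construct in confluent cells. The sub-confluent CAMTA1 libraries and the confluent TFE3 libraries carried the full-length partners of the fusion proteins in the study. They were used to mark genes that differed with density outside these groups, and they entered the shared estimate of the spread. The CAMTA1 libraries also stood in for EVsub in an alternative. All cells had been transduced with the retroviral vector pBabeNeo and selected with G418 as pooled stable lines, so no group was a single clone, and the constructs were introduced genes expressed from a vector. Per the study's methods the 3 libraries of a group came from cells transduced separately. The p-values weigh a difference against the spread between libraries within groups, estimated together over all 24 libraries.

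YAP and its paralog TAZ are coactivators without a DNA-binding domain of their own, and they reach target genes mainly through the TEAD transcription factors. In dense cultures the kinases LATS1 and LATS2 phosphorylate YAP, which then stays in the cytoplasm or is degraded, whereas in sparse cultures YAP enters the nucleus. CCN1, CCN2 and ANKRD1 are textbook targets, and YAP activity is known for its ties to proliferation, the actin cytoskeleton and the extracellular matrix.

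Depth was similar in the groups. Total counts lay between 23184246 and 25830489 in YAP5SA, between 21947731 and 34960377 in EVsub and between 19700277 and 26984451 in EV. Levels are given in CPM, the count of a gene relative to the scaled total of its library, and differences on the log2 scale with the standard error (SE) and the adjusted p-value of the edgeR quasi-likelihood test. Of the mesenchymal markers, 10 of 10 were tested, with summed levels of 2982 to 4002 CPM in YAP5SA and 3662 to 3948 CPM in EVsub, and 4 were higher and 2 lower in YAP5SA, or 5 and 0 without YAP5SA library 3. Other marker lists had 4 of 9 adipocyte, 4 of 10 blood, 8 of 10 epithelial and 9 of 10 endothelial genes with enough counts to be tested. Among the markers not tested, PTPRC of blood cells and FABP4 and ADIPOQ of adipocytes had at most 1, 1 and 0 counts in any library of the 3 groups. The 4 tested adipocyte genes summed to 118 to 132 CPM in YAP5SA and 204 to 236 CPM in EVsub. YAP5SA library 3 stood apart from the other 2 YAP5SA libraries in several lists. Its mean log2 CPM relative to EV was 0.128 against 0.871 and 0.853 in glycolysis and hypoxia genes, 0.001 against 0.586 and 0.601 in the mesenchymal markers, -0.155 against 0.126 and 0.262 in collagens and -0.263 against 0.079 and 0.109 in matrix glycoproteins. Values without it are given where a call ends or a count moves by over 1.5 times.

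The construct was checked first through the gene it derives from. YAP1 (ENSG00000137693, chromosome 11, 102110447 to 102233424, plus strand, GENCODE 44 on GRCh38) was at 250, 252 and 257 CPM in YAP5SA, at 170, 133 and 156 CPM in EVsub and at 143, 126 and 116 CPM in EV. All 3 YAP5SA libraries lay above the other 6. The log2 difference from EVsub was 0.73 (SE 0.10, adjusted p = 1.66e-06, edgeR), and reads of the introduced coding sequence and of the endogenous gene were not separated in these counts. WWTR1, which encodes TAZ (ENSG00000018408, chromosome 3, 149517235 to 149736714, minus strand), moved the other way. It stood at 70.6, 67.3 and 68.3 CPM in YAP5SA against 218, 210 and 226 CPM in EVsub and 228, 203 and 184 CPM in EV. The fall from EVsub to YAP5SA was by 1.67 on the log2 scale (SE 0.08, adjusted p = 1.46e-13, edgeR). Both genes overlap other annotated genes.

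Across all genes the YAP5SA and EVsub libraries differed widely. Of the 19316 genes, 10737 (55.6%) were called at an adjusted p under 0.05 in YAP5SA against EVsub, 5588 higher (28.9%) and 5149 lower (26.7%), and 3949 (20.4%) were called with a log2 difference of at least 1 in size. The libraries of YAP5SA and EVsub did not overlap in 62.4% of genes. Under total-count scaling 41.6% of the calls were higher in place of 52.0%, and the median of all genes moved from 0.03 to -0.10 on the log2 scale. For comparison, 7284 genes (37.7%) were called in EVsub against EV, with 19.9% of genes higher, 17.9% lower, 6.91% called with a log2 difference of at least 1 and 53.7% without overlap of the libraries. In YAP5SA against EV 8843 (45.8%) were called, 23.7% higher and 22.1% lower, with 15.9% called with a log2 difference of at least 1 and 53.6% without overlap. Of these calls 51.7% were higher, or 32.5% under total-count scaling. These comparisons share libraries with the first, so their values are set side by side only.

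As profiles, the YAP5SA libraries were as far from the sparse as from the confluent control. Euclidean distances on log2 CPM (prior count 2) over all tested genes were 136.5 ± 5.92 (SD over 9 pairs of libraries) between YAP5SA and EVsub and 136.9 ± 3.8 between YAP5SA and EV. The control groups EVsub and EV were closer to each other, at 86.9 ± 8.76, and pairs of libraries within YAP5SA lay at 62.7 ± 5.72 (SD over 3 pairs). On the 500 most variable genes the distance to EVsub was 0.88 of that to EV, against 0.997 on all genes. The pairs share libraries and are not independent, so no test was made.

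Genes that differed with density were taken from libraries outside these groups. In sub-confluent CAMTA1 against confluent TFE3, 9436 genes (48.9%) were called and 2303 (11.9%) were called with a log2 difference of at least 1, of which 963 were higher and 1340 lower in the sub-confluent cells. The shares of all genes called there were 24.7% higher and 24.1% lower, and the libraries did not overlap in 59% of genes. They are called sparse-high and sparse-low genes. These libraries also carried different constructs, and density and construct cannot be told apart there either.

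The sparse-high genes did not sit at the EVsub level as a set in YAP5SA but on both sides of it. Of the 963 genes, 302 (31.4%) were higher in YAP5SA than in EVsub, 407 (42.3%) were lower and 254 (26.4%) were not called, with a median log2 difference of -0.29. The background over all genes was 28.9% higher and 26.7% lower. In EVsub against EV, 664 of the same 963 genes were higher and 8 lower, and in YAP5SA against EV 451 were higher and 120 lower. The order of the shares higher and lower in YAP5SA turned when offsets for GC content and length were added (37.9% higher and 28.6% lower), without TFE3 library 1 (37.5% and 34.8%) and in a test against a log2 change of 1 (29.0% and 9.84%), so neither direction is given for the set.

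The sparse-low genes were more often above the EVsub level than below it. Of the 1340 genes, 537 (40.1%) were higher in YAP5SA than in EVsub, 181 (13.5%) were lower and 622 (46.4%) were not called, with a median log2 difference of 0.42. Over all genes the shares were 28.9% higher and 26.7% lower. In EVsub against EV, 5 were higher and 855 lower, and in YAP5SA against EV 159 were higher and 535 lower. The shares kept that order in all alternatives run, including the offsets for GC content and length (32.9% higher and 16.7% lower). Genes were kept by their counts in YAP5SA and EVsub. A gene low in EVsub could thus enter through its YAP5SA level, which favours higher calls in this set. The share higher moved with the filter, from 28.8% with no filter beyond 1 count to 55.7% at a mean of 50 counts.

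A position was computed for each library on a scale on which the mean of the TFE3 libraries is 0 and the mean of the CAMTA1 libraries is 1. On the sparse-high genes the YAP5SA libraries were at 0.838, 0.806 and 0.790, the EVsub libraries at 0.804, 0.632 and 0.750 and the EV libraries at 0.178, 0.081 and 0.012. The ranges of YAP5SA and EVsub overlapped, and both lay above EV. On the sparse-low genes the YAP5SA libraries were at 0.548, 0.504 and 0.554, below the EVsub libraries at 0.791, 0.680 and 0.827 and above the EV libraries at 0.186, 0.152 and 0.118. The position is a mean over genes, each weighted by its squared log2 difference between CAMTA1 and TFE3. Genes with large differences there count most. The genes differed in both directions between YAP5SA and EVsub, so neither a like nor a higher position shows the levels of the single genes.

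**Figure D1:**
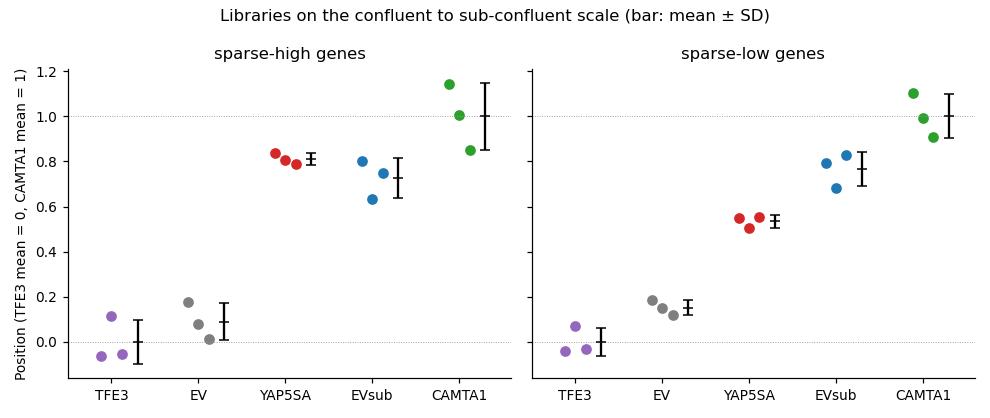
Each point is 1 library, placed by its position over the sparse-high genes (left) or the sparse-low genes (right). The position is a mean over genes weighted by the squared log2 difference between CAMTA1 and TFE3. The scale has no units and runs from the mean of the TFE3 libraries (0) to the mean of the CAMTA1 libraries (1). The mean and SD of 3 libraries stand beside the points. YAP5SA averaged 0.811 ± 0.025 beside 0.728 ± 0.088 in EVsub on the left, and 0.535 ± 0.028 beside 0.766 ± 0.077 on the right.

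The genes with the largest differences between CAMTA1 and TFE3 in each set show that mixture. Among the sparse-high genes, ANKRD1, which encodes a cardiac ankyrin repeat protein, and NPPB, the precursor of brain natriuretic peptide, were far above the sparse control and are described below. CPA4, a carboxypeptidase, was at 1047, 1046 and 855 CPM in YAP5SA against 125, 97.0 and 130 CPM in EVsub, a log2 difference of 3.06 (SE 0.21, adjusted p = 3.796e-11, edgeR). WNT7B, a Wnt ligand, was at 7.10, 8.59 and 5.11 CPM in YAP5SA and 7.58, 4.89 and 8.70 CPM in EVsub. Its ranges overlapped, and the log2 difference of -0.04 (SE 0.27) was not called. ESM1, a secreted proteoglycan of endothelial cells, fell from 32.2, 16.6 and 36.3 CPM in EVsub to 10.1, 9.49 and 6.83 CPM in YAP5SA, by 1.70 on the log2 scale (SE 0.31, adjusted p = 6.48e-05, edgeR).

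Of the 5 sparse-low genes with the largest differences, 4 fell further in YAP5SA. KDR, the VEGF receptor 2, was at 39.6, 54.8 and 39.7 CPM in EV, at 10.7, 14.3 and 8.62 CPM in EVsub and at 2.98, 2.43 and 3.19 CPM in YAP5SA, with no overlap between neighbouring groups. The matrix protein gene SPARCL1 fell from EVsub to YAP5SA by 1.68 (SE 0.38, adjusted p = 0.000639, edgeR) and JPH4, a junctophilin, by 1.23 (SE 0.25, adjusted p = 0.000221). The kinase gene BMX fell by 1.41 (SE 0.47, adjusted p = 0.0139), which was 1.02 with an adjusted p of 0.0916 without YAP5SA library 3. C1orf115 was at 3.22, 3.01 and 3.75 CPM in YAP5SA and 2.85, 6.41 and 2.57 CPM in EVsub and was not called.

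The textbook YAP targets rose past the sparse control. CCN1 (ENSG00000142871, chromosome 1, 85580761 to 85584589, plus strand), a matricellular protein, was at 745, 730 and 726 CPM in YAP5SA, at 104, 89.6 and 113 CPM in EVsub and at 45.1, 42.3 and 35.8 CPM in EV. The 3 groups did not overlap, and the log2 difference between YAP5SA and EVsub was 2.85 (SE 0.11, adjusted p = 2.85e-15, edgeR). CCN2 (ENSG00000118523, chromosome 6, 131948176 to 131951372, minus strand), the connective tissue growth factor, was at 524, 472 and 482 CPM in YAP5SA, at 109, 83.9 and 124 CPM in EVsub and at 27.0, 20.7 and 16.4 CPM in EV. The groups again did not overlap, and YAP5SA was 4.66-fold above EVsub (log2 difference 2.22, SE 0.19, adjusted p = 1.24e-09, edgeR), while EVsub was 4.92-fold above EV. ANKRD1 (ENSG00000148677, chromosome 10, 90912096 to 90921087, minus strand) was at 176, 163 and 229 CPM in YAP5SA, at 23.9, 13.1 and 19.3 CPM in EVsub and at 1.61, 0.838 and 0.822 CPM in EV. Its log2 difference between YAP5SA and EVsub was 3.33 (SE 0.29, adjusted p = 2.15e-09, edgeR). In bulk RNA, more cells that express a gene and more RNA per cell cannot be told apart.

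Of the list of 22 YAP/TAZ target genes, 18 were higher in YAP5SA than in EVsub and 0 lower, with a median log2 difference of 0.96, against 28.9% higher and 26.7% lower and a median of 0.03 over all genes. In EVsub against EV, 14 were higher and 3 lower (median 0.69), and in YAP5SA against EV 18 were higher and 0 lower (median 1.40). The means rose in the order EV, EVsub, YAP5SA in 17 of the 22 genes (77.3%), which was the order in 16.4% of all tested genes. The mean log2 CPM of the list, relative to EV, was 0.840, 0.672 and 0.871 in the EVsub libraries and 1.96, 1.92 and 1.90 in the YAP5SA libraries. These genes are commonly cited targets and were listed with results of these data known.

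The 250 bases upstream of the RefSeq start (GRCh38.p14) were searched on both strands for CATTCC, the core letters of the TEAD motif, which read GGAATG on the other strand. They were present in 6 of the 16 target genes with an entry (37.5%) and in 9.73% of the 12683 tested genes with an entry. The upstream sequences of CCN2 (chr6:131951373-131951622, minus strand) and ANKRD1 (chr10:90921088-90921337, minus strand) are shown 5′ to 3′, with the matches in capitals, as textbook targets that held a match. CCN1 had no entry. CCN2 held 3 matches and ANKRD1 held 2, and a match is no measurement of binding.
CCN2: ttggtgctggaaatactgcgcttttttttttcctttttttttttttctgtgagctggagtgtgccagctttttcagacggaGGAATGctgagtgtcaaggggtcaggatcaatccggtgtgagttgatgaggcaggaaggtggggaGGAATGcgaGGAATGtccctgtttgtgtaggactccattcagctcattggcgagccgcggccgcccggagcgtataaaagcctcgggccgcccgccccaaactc
ANKRD1: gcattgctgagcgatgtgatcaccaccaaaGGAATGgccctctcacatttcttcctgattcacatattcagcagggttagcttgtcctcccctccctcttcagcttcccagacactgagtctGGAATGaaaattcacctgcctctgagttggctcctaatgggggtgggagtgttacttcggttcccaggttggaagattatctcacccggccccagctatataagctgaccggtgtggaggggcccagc

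**Figure D2:**
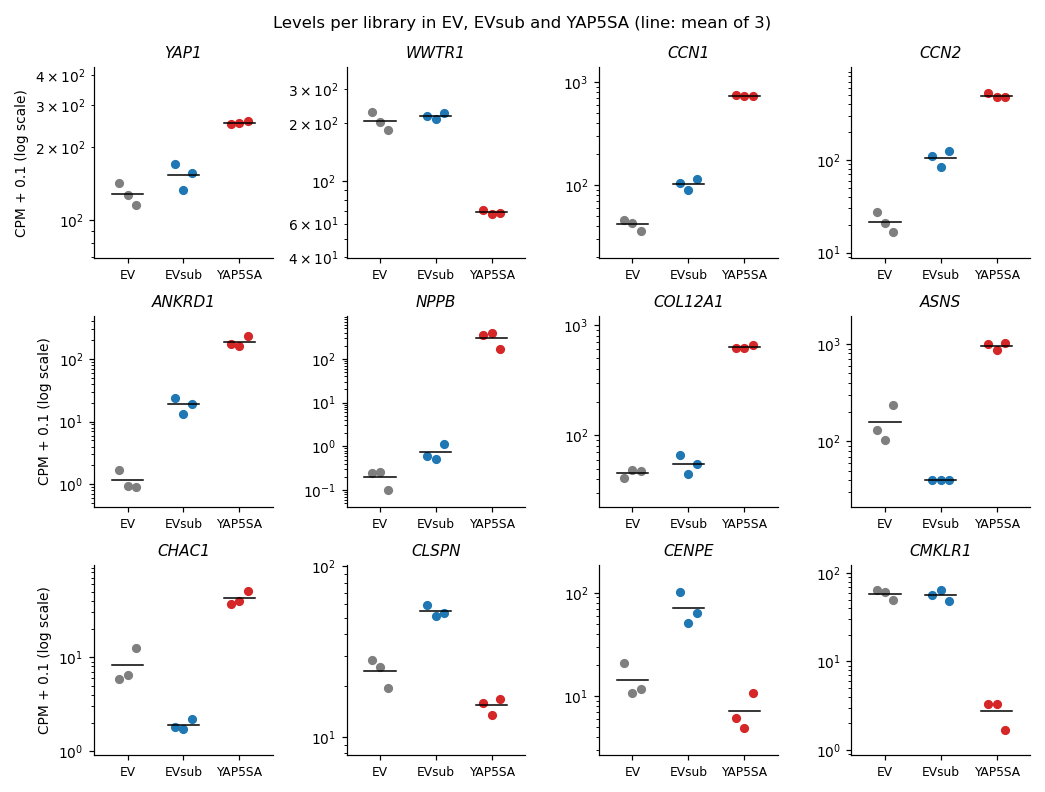
CPM plus 0.1 on a log axis for 12 genes, 1 panel each, with 1 point per library of EV, EVsub and YAP5SA and a line at the mean of 3. CCN1, CCN2 and ANKRD1 stepped up from EV to EVsub to YAP5SA, ASNS and CHAC1 were lowest in EVsub and highest in YAP5SA, and CLSPN and CENPE were highest in EVsub.

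Genes of the Hippo pathway itself moved in both directions. Of 34 tested genes of kinases, scaffolds and TEAD partners, 18 were higher and 7 lower in YAP5SA than in EVsub (median log2 difference 0.38). VGLL1 and VGLL2 had too few counts to be tested. AJUBA, a LIM protein that inhibits LATS kinases, was at 582, 584 and 573 CPM in YAP5SA and 75.5, 64.0 and 81.5 CPM in EVsub, with a log2 difference of 2.98 (SE 0.16, adjusted p = 4.35e-13, edgeR). WWC1, the scaffold KIBRA that activates LATS, was at 40.0, 41.6 and 44.7 CPM against 4.99, 5.20 and 6.05 CPM, a log2 difference of 2.95 (SE 0.17). Neither gene was called in EVsub against EV, where the log2 differences were 0.03 and 0.11. MOB1B, a LATS cofactor, fell after TAZ by the next largest amount, 1.36 on the log2 scale (SE 0.24, adjusted p = 3.81e-05, edgeR). LATS2 rose and LATS1 fell, with log2 differences of 1.25 and -0.55, both called and named after their values were seen.

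The cell cycle genes went the other way. DNA replication genes, which encode origin licensing factors, the MCM helicase, polymerases and nucleotide synthesis enzymes, were higher in sparse than in confluent control cells, and YAP5SA cells stood near the confluent control. Of 43 genes, 30 were lower and 0 higher in YAP5SA than in EVsub, with a median log2 difference of -0.61, or 23 lower without YAP5SA library 3. Between EV and EVsub, 29 were higher in EVsub and 0 lower (median 0.60), and in YAP5SA against EV 5 were higher and 4 lower (median 0.02). CLSPN, which encodes the checkpoint mediator claspin, was at 59.3, 50.9 and 52.9 CPM in EVsub, at 15.7, 13.3 and 16.6 CPM in YAP5SA and at 27.96, 25.6 and 19.3 CPM in EV. All EVsub libraries lay above the others, and YAP5SA was lower than EVsub by 1.83 on the log2 scale (SE 0.33, adjusted p = 5.00e-05, edgeR). CCNE2, which encodes cyclin E2 and overlaps 4 genes on the other strand, was at 13.2, 11.3 and 12.4 CPM in EVsub and 1.37, 1.29 and 1.76 CPM in YAP5SA. It also fell below the EV libraries at 4.87, 3.35 and 3.29 CPM.

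The E2F motif TTCCCGC, or GCGGGAA on the other strand, was present in the 250 bases upstream of 15 of the 37 replication genes with an entry (40.5%) and of 8.37% of the tested genes with an entry. Upstream sequences of PCNA, the sliding clamp of the replication fork (chr20:5126623-5126872, minus strand), and UHRF1, a factor of maintenance methylation (chr19:4909251-4909500, plus strand), are shown for this group, with the matches in capitals. Both genes were called lower in YAP5SA than in EVsub, with log2 differences of -0.97 and -0.92, and were chosen for showing after their values were seen.
PCNA: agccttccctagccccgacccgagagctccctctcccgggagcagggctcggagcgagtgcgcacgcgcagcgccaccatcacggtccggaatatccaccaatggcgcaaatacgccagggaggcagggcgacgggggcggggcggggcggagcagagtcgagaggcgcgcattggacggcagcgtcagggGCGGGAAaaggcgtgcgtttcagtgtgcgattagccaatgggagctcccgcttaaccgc
UHRF1: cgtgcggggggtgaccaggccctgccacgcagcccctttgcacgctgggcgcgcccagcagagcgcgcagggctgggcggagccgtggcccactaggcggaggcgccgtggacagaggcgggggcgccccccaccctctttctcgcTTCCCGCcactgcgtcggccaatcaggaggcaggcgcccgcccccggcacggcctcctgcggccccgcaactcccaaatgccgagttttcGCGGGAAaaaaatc

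Mitosis genes were more often lower than higher against the sparse control, and more often higher than lower against the confluent one. Of 36 genes, 19 were lower and 2 higher in YAP5SA than in EVsub (median -0.47). All but 1 were higher in EVsub than in EV, 35 higher and 0 lower (median 0.85), and in YAP5SA against EV 20 were higher and 4 lower (median 0.41). Under total-count scaling 13 were higher and 4 lower in YAP5SA against EV (median 0.225). The means rose in the order YAP5SA, EV, EVsub in 10 of the 36 genes (27.8%), beside 22.9% of all tested genes. CENPE, a kinetochore motor (ENSG00000138778, chromosome 4, 103105349 to 103198445, minus strand), was at 100.4, 50.4 and 63.2 CPM in EVsub, at 5.96, 4.82 and 10.5 CPM in YAP5SA and at 20.7, 10.5 and 11.5 CPM in EV. Its fall from EVsub to YAP5SA was by 3.32 on the log2 scale (SE 0.41, adjusted p = 3.41e-07, edgeR). The highest YAP5SA library and the lowest EV library both stood at 10.5 CPM as rounded. ASPM, a spindle pole protein, fell by 2.92 (SE 0.34, adjusted p = 1.52e-07). PTTG1, the securin, and AURKB, the mitotic Aurora B kinase, rose instead, with log2 differences of 0.49 (SE 0.10, adjusted p = 0.000312, edgeR) and 0.44 (SE 0.12, adjusted p = 0.00272), the latter not called once offsets for GC content and length were added.

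D cyclins, CDK inhibitors and pocket proteins split, with 6 of 15 higher and 7 lower. RB1, the retinoblastoma protein gene, was at 40.7, 40.0 and 46.8 CPM in YAP5SA against 156, 129 and 139 CPM in EVsub and 128, 108 and 98.3 CPM in EV, which is a fall from EVsub by 1.73 on the log2 scale (SE 0.14, adjusted p = 4.30e-10, edgeR). RB1 overlaps 11 other genes, 8 of them on the other strand. RBL1, its relative p107, fell by 1.42 (SE 0.18). The CDK inhibitor gene CDKN1C rose by 0.83 (SE 0.29, adjusted p = 0.0183), which was 0.58 with an adjusted p of 0.119 without EVsub library 1 and also missed the threshold without YAP5SA library 2 (0.0875) or 3 (0.0603). The number higher was 3 without EVsub library 2 or YAP5SA library 2.

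Ribosome biogenesis genes followed the replication genes. Of 24 genes, 14 were lower and 2 higher in YAP5SA than in EVsub (median -0.26). Against EV, in turn, EVsub had 15 that were higher and 0 lower, and in YAP5SA against EV 6 were higher and 2 lower. NOP58, a core protein of box C/D small nucleolar particles, fell from 144, 114 and 127 CPM in EVsub to 35.31, 36.5 and 49.7 CPM in YAP5SA, by 1.66 on the log2 scale (SE 0.22, adjusted p = 9.30e-07, edgeR). The 2 members that were higher, FBL and RRP9, were not called without EVsub library 1 or without YAP5SA library 2, which left 0 higher. FBL also missed the threshold without YAP5SA library 1 (adjusted p = 0.0510, edgeR), and RRP9 turned to -0.04 with offsets for GC content and length.

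Cholesterol and fatty acid synthesis genes were 12 lower and 5 higher of 32 in YAP5SA against EVsub (median -0.20). They were 24 higher and 1 lower in EVsub against EV (median 0.64), and 19 higher and 4 lower in YAP5SA against EV (median 0.42). ELOVL6, a fatty acid elongase, fell from 36.2, 33.1 and 34.5 CPM to 10.03, 10.8 and 14.8 CPM, by 1.54 on the log2 scale (SE 0.14, adjusted p = 6.19e-09, edgeR). SREBF2, the master regulator of sterol synthesis, rose from 288, 296 and 312 CPM to 514, 523 and 436 CPM, a log2 difference of 0.72 (SE 0.12). Without YAP5SA library 3 the number lower was 7, and without YAP5SA library 1 the number higher was 3.

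**Figure D3:**
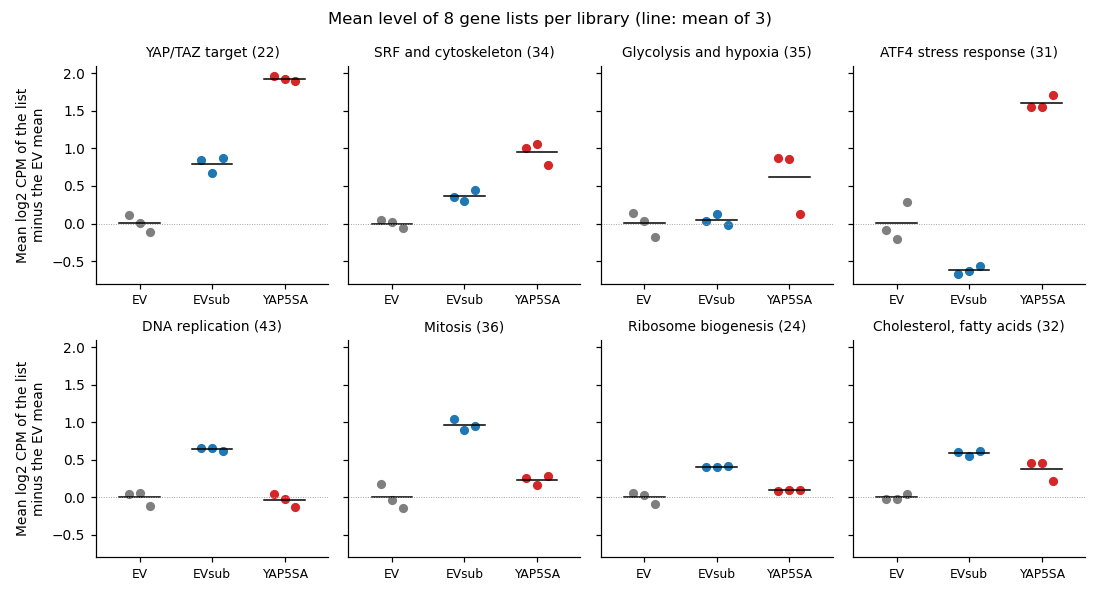
Mean log2 CPM of the tested members of 8 gene lists (number in parentheses), minus the mean of the EV libraries, with 1 point per library and a line at the mean of 3. YAP/TAZ targets and ATF4 genes averaged 1.92 and 1.599 in YAP5SA, DNA replication genes averaged 0.64 in EVsub and -0.03 in YAP5SA, and 1 YAP5SA library stood apart in the glycolysis and hypoxia genes.

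ATF4 stress response genes, which make amino acids, load tRNAs and import cystine when the integrated stress response is on, had the largest median difference among the 24 lists. Of 31 genes, 30 were higher and 0 lower in YAP5SA than in EVsub, with a median log2 difference of 2.10. In EVsub against EV 1 was higher and 18 lower (median -0.57), and in YAP5SA against EV 31 were higher and 0 lower (median 1.46). The means rose in the order EVsub, EV, YAP5SA in 28 of the 31 genes (90.3%), which was the order in 21.9% of all tested genes. ASNS, asparagine synthetase (ENSG00000070669, chromosome 7, 97851677 to 97872542, minus strand, overlapping 2 other genes), was at 1001, 867 and 1030 CPM in YAP5SA, at 40.2, 40.4 and 40.0 CPM in EVsub and at 131, 104 and 238 CPM in EV. No groups overlapped, and the log2 difference between YAP5SA and EVsub was 4.59 (SE 0.30, adjusted p = 1.66e-11, edgeR). CHAC1, a glutathione-degrading enzyme (ENSG00000128965, chromosome 15, 40952962 to 40956512, plus strand), was at 36.7, 39.9 and 51.0 CPM in YAP5SA, at 1.71, 1.61 and 2.09 CPM in EVsub and at 5.85, 6.32 and 12.4 CPM in EV. Its log2 difference was 4.54 (SE 0.39, adjusted p = 1.83e-09, edgeR).

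The combined ATF4 and C/EBP element TGATGNAA was present upstream of 3 of the 25 ATF4 list genes with an entry (12%) and of 1.51% of the tested genes with an entry. The windows of ASNS (chr7:97872409-97872658, minus strand) and CHAC1 (chr15:40953221-40953470, plus strand) are shown because these genes had the largest differences of the list, with the match in capitals. In CHAC1 the match is on the other strand. RefSeq starts can lie inside the GENCODE bounds of a gene, as both of these do.
ASNS: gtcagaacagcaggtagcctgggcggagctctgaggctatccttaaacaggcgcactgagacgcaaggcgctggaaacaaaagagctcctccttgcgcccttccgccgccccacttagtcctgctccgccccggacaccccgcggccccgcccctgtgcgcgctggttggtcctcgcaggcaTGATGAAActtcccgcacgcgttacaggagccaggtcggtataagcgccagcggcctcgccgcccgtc
CHAC1: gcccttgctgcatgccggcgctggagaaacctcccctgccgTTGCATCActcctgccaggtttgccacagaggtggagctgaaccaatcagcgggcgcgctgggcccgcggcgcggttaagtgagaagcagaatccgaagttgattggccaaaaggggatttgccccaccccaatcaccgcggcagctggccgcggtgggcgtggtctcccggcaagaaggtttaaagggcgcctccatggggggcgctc

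Genes of the contractile cytoskeleton, many of them targets of serum response factor, extended the direction of the sparse cells. Of 34 tested genes, 21 were higher and 2 lower in YAP5SA than in EVsub (median 0.40), 17 were higher and 0 lower in EVsub against EV and 26 were higher and 1 lower in YAP5SA against EV. CNN1, the smooth muscle calponin, was at 22.2, 23.3 and 14.2 CPM in YAP5SA, at 4.64, 4.17 and 5.85 CPM in EVsub and at 2.59, 2.21 and 1.64 CPM in EV, with no overlap of groups. The log2 difference between YAP5SA and EVsub was 2.01 (SE 0.26, adjusted p = 5.66e-07, edgeR). LMOD1, a leiomodin, rose by 2.00 (SE 0.26), while MRTFB, a cofactor of serum response factor, fell by 0.85 (SE 0.10). CALD1, caldesmon, fell from 606, 477 and 548 CPM to 352, 342 and 359 CPM, by 0.63 on the log2 scale (SE 0.13, adjusted p = 0.000172, edgeR). MYL9 had 0 to 3 counts per library and was not tested.

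Collagen genes were more often higher than lower in YAP5SA against EVsub. Of 23 tested genes, 14 were higher and 4 lower in YAP5SA than in EVsub (median 0.60), and 2 were higher and 11 lower in EVsub against EV. In YAP5SA against EV 8 were higher and 7 lower (median 0.125). Offsets for GC content and length changed the first count to 12 higher and 7 lower, with a median of 0.26, and the second to 4 higher and 9 lower, with a median of -0.06. COL12A1, a fibril-associated collagen (ENSG00000111799, chromosome 6, 75084326 to 75206267, minus strand), was at 622, 620 and 655 CPM in YAP5SA against 65.9, 44.4 and 54.4 CPM in EVsub and 41.2, 48.0 and 47.0 CPM in EV. The log2 difference between YAP5SA and EVsub was 3.52 (SE 0.13, adjusted p = 1.63e-15, edgeR). COL8A1 rose by 3.21 (SE 0.18), from 16.9, 13.4 and 18.8 CPM to 171, 174 and 114 CPM. COL15A1, a basement membrane collagen, fell from 268, 355 and 220 CPM to 69.5, 69.6 and 77.6 CPM, by 1.96 (SE 0.23, adjusted p = 1.52e-07). COL6A3 fell by 1.11 (SE 0.40, adjusted p = 0.0218), which was 0.80 with an adjusted p of 0.115 without YAP5SA library 3 and had an adjusted p of 0.0516 and 0.0518 without EVsub library 1 and 2.

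Other matrix genes and integrins were mixed. Of 27 matrix glycoproteins and crosslinkers, 12 were higher and 6 lower in YAP5SA than in EVsub. In EVsub against EV 6 were higher and 13 lower, and in YAP5SA against EV 9 were higher and 11 lower. FBN2, fibrillin 2, was at 19.0, 18.8 and 25.3 CPM in YAP5SA, at 0.838, 0.852 and 0.480 CPM in EVsub and at 3.92, 4.72 and 4.83 CPM in EV, a log2 difference from EVsub of 4.90 (SE 0.34, adjusted p = 4.41e-11, edgeR). POSTN, periostin, fell by 2.45 (SE 0.33). Of 17 proteases and inhibitors, 7 were higher and 4 lower, among them PLAUR, the urokinase receptor (2.13, SE 0.17), which rose, and MMP1, interstitial collagenase, which fell from 3.73, 3.81 and 4.32 CPM to 0.0473, 0.334 and 0.160 CPM. All 17 tested integrin genes were called, 12 lower and 5 higher (median -0.58), with ITGA10 (-2.88, SE 0.21) and ITGA2 (-1.996, SE 0.13) falling furthest and ITGB4 (1.99, SE 0.17) and ITGA7 (1.83, SE 0.24) rising most among the members of this list with a mean of at least 50 counts. ITGB2, described below, was not on the list and rose further. Of 20 junction genes, 12 were higher and 6 lower, and the cadherin genes CDH4 and CDH2 rose by 2.95 (SE 0.20) and 2.38 (SE 0.20).

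Secreted factors and their receptors were more often higher than lower. Of 24 genes of EGF, FGF, PDGF and VEGF signalling, 14 were higher and 5 lower (median 0.48). PDGFB, a ligand of the PDGF receptors, was at 20.1, 23.1 and 18.1 CPM in YAP5SA, at 0.685, 0.987 and 1.24 CPM in EVsub and at 0.280, 0.457 and 0.435 CPM in EV. Its log2 difference from EVsub was 4.36 (SE 0.22, adjusted p = 2.05e-13, edgeR). The receptor gene ERBB3 rose by 4.14 (SE 0.21). Of 27 genes of TGF-beta and BMP signalling, 17 were higher and 4 lower (median 0.52), or 2 lower without EVsub library 3. BMP4 was at 321, 341 and 298 CPM in YAP5SA against 40.8, 33.5 and 40.7 CPM in EVsub, a log2 difference of 3.06 (SE 0.17, adjusted p = 9.08e-13, edgeR), and INHBB, an activin subunit, rose by 4.89 (SE 0.34). TGFBR1, the type I receptor, fell by 1.25 (SE 0.15). Of 18 cytokine and NF-kB genes, 8 were higher and 4 lower, with IL11 rising by 1.59 (SE 0.21) and CXCL8, interleukin 8, falling by 2.83 (SE 0.52, adjusted p = 6.25e-05, edgeR). Of 25 AP-1 and immediate early genes, 9 were higher and 6 lower, near the shares of all genes (28.9% higher and 26.7% lower). With offsets for GC content and length 8 were higher and 6 lower. The transcription factor ATF3 (3.12, SE 0.25) and the phosphatase DUSP1 (2.27, SE 0.19) rose most. SPRY4 (-1.72, SE 0.12) and DUSP6 (-1.45, SE 0.13), feedback inhibitors of ERK signalling, fell most.

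More glycolysis and hypoxia genes were higher than lower in YAP5SA, and their number moved with the library left out. Of 35 genes, 23 were higher and 4 lower (median 0.58). The number higher was 16 without YAP5SA library 1, 18 without library 2 and 27 without library 3 (median 0.76). Against EV, 5 were higher and 1 lower in EVsub. The mean log2 CPM of the list, relative to EV, was 0.871, 0.853 and 0.128 in the YAP5SA libraries and 0.035, 0.122 and -0.017 in the EVsub libraries. CA9, a hypoxia-induced carbonic anhydrase, was at 14.5, 13.1 and 0.160 CPM in YAP5SA and 0.228, 0.314 and 0.141 CPM in EVsub, so that library 3 lay within the EVsub range. Its log2 difference was 5.38 (SE 1.12, adjusted p = 0.000273, edgeR) and 5.97 without that library. NDRG1, a stress-induced gene, was at 638, 605 and 252 CPM against 90.8, 102 and 82.8 CPM, a log2 difference of 2.44 (SE 0.29, adjusted p = 1.86e-07, edgeR).

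Besides the AP-1 list above, lists with shares closer to the background were the growth arrest and FOXO target genes (6 of 22 higher and 4 lower), the lysosome and autophagy genes (11 of 39 higher and 9 lower) and the adipocyte differentiation genes (6 of 20 higher and 6 lower). Interferon-stimulated genes were 10 higher and 11 lower of 28, with 5 higher without EVsub library 1 and 6 without YAP5SA library 2. Under total-count scaling 9 growth arrest and 14 lysosome genes were lower, and 8 growth arrest genes were lower with offsets for GC content and length. Single members still differed widely. TXNIP, an inhibitor of glucose uptake that was low in sparse cells, was at 152, 168 and 140 CPM in EVsub, at 785, 652 and 928 CPM in YAP5SA and at 556, 681 and 734 CPM in EV, so that YAP5SA and EV overlapped. Its log2 difference between YAP5SA and EVsub was 2.36 (SE 0.18, adjusted p = 2.97e-10, edgeR). GABARAPL1, an autophagy protein, rose by 2.45 (SE 0.10), and the transcription factor EBF1 fell by 2.56 (SE 0.20).

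**Figure D4:**
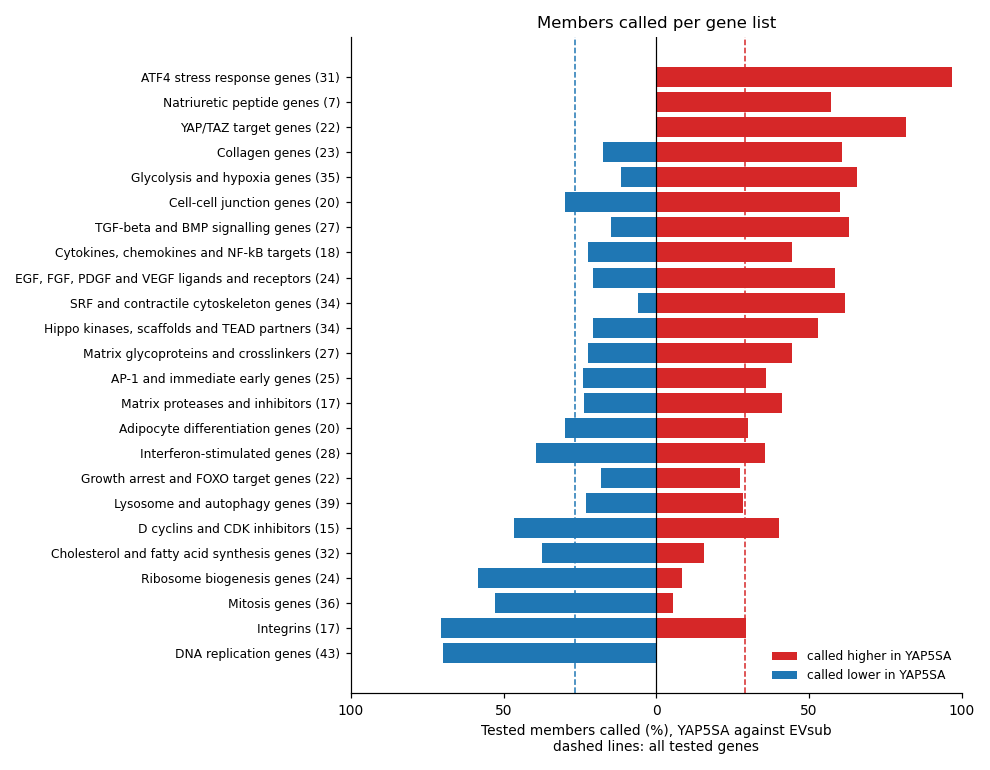
Share of the tested members (number in parentheses) of 24 gene lists that were called higher (right) or lower (left) in YAP5SA against EVsub, in percent, ordered by the median log2 difference. Dashed lines mark the shares over all tested genes, 28.9% higher and 26.7% lower, and bars for the ATF4 and YAP/TAZ target genes reach past the right line with no member called lower.

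The 10 largest rises over the sparse control were taken under the selection rule given below. Mean levels of these genes in EVsub ranged from under 1 CPM to 6.82 CPM, the latter in KRT81. NPPB (ENSG00000120937, chromosome 1, 11857464 to 11858945, minus strand) was at 347, 394 and 172 CPM in YAP5SA, at 0.495, 0.404 and 1.05 CPM in EVsub and at 0.140, 0.152 and 0 CPM in EV. The log2 difference between YAP5SA and EVsub was 8.77 (SE 0.33, adjusted p = 2.12e-15, edgeR). TNNI1, the slow skeletal troponin I, had at most 1 count per EVsub library and was at 14.3, 13.0 and 1.32 CPM in YAP5SA, which is at least 85.9-fold higher, set against a floor of 3 counts per library. The third YAP5SA library was well below the other 2. HCN4, the pacemaker channel, was at 9.13, 10.9 and 10.3 CPM and at least 90.8-fold higher. The next in rank were OLFML1, an olfactomedin-like protein (6.85, SE 0.45), SPX, the peptide hormone spexin (6.57, SE 0.36), and KRT81, a hair keratin with close paralogs (6.08, SE 0.29). TMEM132E (5.91, SE 0.38), TNFSF18, the ligand of GITR (5.88, SE 0.39), ITGB2, the leukocyte integrin beta subunit (5.76, SE 0.28), and KISS1, the kisspeptin precursor (5.62, SE 0.32), followed. Of the 7 tested natriuretic peptide and receptor genes, 4 were higher and 0 lower, among them MME, the protease neprilysin (3.13, SE 0.22). TNNI1, HCN4, OLFML1, SPX, TMEM132E, TNFSF18, ITGB2 and KISS1 were not called in EVsub against EV, whereas NPPB and KRT81 were, with log2 differences of 2.66 and 1.98.

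The genes that fell furthest were expressed in both controls. In EVsub this followed from the selection, which required a mean of at least 100 counts over YAP5SA and EVsub. Of the 10 genes, 4 were called between the controls. CMKLR1, the chemerin receptor (ENSG00000174600, chromosome 12, 108288044 to 108339317, minus strand), was at 3.22, 3.20 and 1.56 CPM in YAP5SA, at 56.6, 64.2 and 48.7 CPM in EVsub and at 64.8, 61.0 and 50.1 CPM in EV. The fall from EVsub was by 4.43 on the log2 scale (SE 0.32, adjusted p = 1.06e-10, edgeR), and EVsub and EV overlapped. NPTX1, neuronal pentraxin 1, fell from 177, 169 and 223 CPM in EVsub to 13.7, 13.7 and 6.87 CPM in YAP5SA, by 4.07 (SE 0.26). SHISA2, an inhibitor of Wnt and FGF receptor maturation (-4.03, SE 0.16), TF, which encodes transferrin and overlaps 3 genes (-3.85, SE 0.29), and the channel gene TRPA1 (-3.84, SE 0.24) came next. They were followed by RANBP3L (-3.78, SE 0.36), SCG2, secretogranin II (-3.64, SE 0.29), DNER, a Notch ligand (-3.54, SE 0.13), PLXNA4, a semaphorin receptor (-3.53, SE 0.27), and CYP4X1, a cytochrome P450 (-3.41, SE 0.27). NPTX1, SCG2 and DNER were higher in EVsub than in EV, and CYP4X1 was lower, with a log2 difference of -1.16.

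GC content moved with the comparison. Over the 18943 genes with a known transcript GC content (98.1%), the log2 difference of YAP5SA against EVsub had a Spearman correlation of 0.436 with GC, that of EVsub against EV -0.439 and that of YAP5SA against EV 0.167, across genes, which are not independent replicates. With offsets for GC content and length, 17 YAP/TAZ targets were higher and 0 lower, 31 ATF4 genes were higher and 0 lower, 33 replication genes were lower and 0 higher, and 20 mitosis genes were lower and 1 higher. Mitochondrial genes took 3.87% to 4.35% of counts in YAP5SA, 3.20% to 3.59% in EVsub and 5.09% to 5.43% in EV. With the offsets the median of AP-1 and immediate early genes turned from 0.20 to -0.08 and that of matrix proteases and inhibitors from 0.13 to -0.13. The part of the mitochondrial share was not tested.

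Epithelial markers were more often higher than lower in YAP5SA. In EVsub against EV, 2 of the 8 tested were higher and 1 lower, and in YAP5SA against EV 4 were higher and 2 lower. Of 8 tested markers, 5 were higher and 1 lower in YAP5SA than in EVsub, and their summed level was 3010 to 4057 CPM in YAP5SA, 425 to 454 CPM in EVsub and 213 to 232 CPM in EV. KRT8 and KRT18, keratins of simple epithelia that were singled out after their values were seen, made up most of it, with log2 differences of 4.12 and 2.23. EPCAM was below 2 CPM in all 9 libraries and was not called. KRT14 and KRT19 had too few counts to be tested. Endothelial markers were 1 higher and 4 lower of 9, with summed levels of 98.2 to 130 CPM in YAP5SA, 139 to 150 CPM in EVsub and 214 to 264 CPM in EV. Of the adipocyte markers, 1 of 4 tested was higher and 2 were lower, with summed levels of 118 to 132 CPM in YAP5SA and 204 to 236 CPM in EVsub. Of the blood markers, 0 of 4 tested were higher and 1 was lower.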

How the data were processed

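Poly(A) RNA of the SW872 lines was prepared with a stranded kit and sequenced paired-end, and per the study's methods the authors aligned reads to hg38 with Hisat2 in bcbio-nextgen. The deposited files hold raw counts per gene made by the authors, with 1 file per library. The authors also quantified transcripts with Salmon and summed them to genes with tximport for their own tests. Which program made the deposited whole-number counts, and its settings for strand and for reads mapping to several genes, is not given in the sources used here.

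Genes averaging 5 or more counts in the YAP5SA and EVsub libraries were kept. One model of 8 group means was fitted to all 24 libraries in edgeR 4.0.16 (R 4.3.3, limma 3.58.1) with TMM scaling and the quasi-likelihood F test, and p-values were adjusted by Benjamini-Hochberg over all tested genes, called under 0.05. DESeq2 1.42.0 was an alternative. The other alternatives were other scalings, filters and prior counts, offsets for GC content and length, thinned counts, a test against a log2 change of 1, a replicate block and leaving out each library. The script was tested on simulated data with known changes. There 6.7% of the calls were false, and 75.5% of log2 changes of 1 and 95.9% of log2 changes of 2 were recovered. Precision is limited by 3 libraries per group.

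Named genes were YAP1, WWTR1, CCN1, CCN2 and ANKRD1, the 10 protein-coding genes that rose and the 10 that fell most with a mean of at least 100 counts, the 5 largest of each sparse set, and up to 2 risen and 2 fallen members of each list with a mean of at least 50 counts, not all of which are printed. The 10 risen and 10 fallen genes also had to be called and to show no overlap of the YAP5SA and EVsub libraries. The list members had to be called. The members and lists were chosen with earlier results of these data known.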

Additional observations from a re-analysis of the deposited data

How the results depend on the processing

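Of 1987 values of 117 named genes under 17 alternative settings, 1910 kept their direction and their side of the threshold. Another 70 no longer passed it, 37 of them in a test against a log2 change of 1, and 1 newly passed. The 6 that turned sign were WNT7B without EVsub replicate 3 (0.139) and without YAP5SA replicate 3 (0.140), BMX with CAMTA1 libraries in place of EVsub (0.121), C1orf115 with the same libraries (1.194) and without EVsub replicate 2 (0.302), and RRP9 with GC and length offsets (-0.042). These offsets were chosen after seeing the data. Of 986 counts of list members, 80 moved by more than 1.5 times.

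Counts of called genes moved by more than 1.5 times in the test against a log2 change of 1, by its construction. It left 1670 in YAP5SA against EVsub (1036 higher, 634 lower), 74 in EVsub against EV (39 higher, 35 lower), 1458 in YAP5SA against EV (1027 higher, 431 lower) and 432 in CAMTA1 against TFE3 (193 higher, 239 lower), with 9.84% of sparse-high genes lower and 12.6% of sparse-low genes higher. Total-count scaling gave 6681 genes lower in YAP5SA against EV. Sets chosen by the call alone had 17.4% of sparse-high genes higher, and CAMTA1 libraries in place of EVsub gave 8.81% of sparse-low genes lower. The cause was not tested. The distance of YAP5SA to EVsub was 74.7 (0.880 of that to EV) on the 500 most variable genes and 151.9 with a prior count of 0.5.

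Leaving out 1 library gave 9464 to 10394 calls in YAP5SA against EVsub, 5316 to 6964 in EVsub against EV, 7469 to 8565 in YAP5SA against EV and 7740 to 9088 in CAMTA1 against TFE3. Sparse-high genes were 25.6% to 37.5% higher and 34.8% to 49.6% lower, and sparse-low genes 33.8% to 42.6% higher and 12% to 14.7% lower. The WNT7B log2 fold change ranged from -0.242 to 0.140 and the C1orf115 log2 fold change from -0.460 to 0.302.

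Deviations of same-numbered YAP5SA and EVsub libraries correlated at -0.00979, 0.0524 and -0.0732, so they shared only a number. For EVsub and EV the same-numbered values were 0.167, 0.0579 and 0.0401, beside -0.107 to 0.0483 for unlike numbers. The main fit did not pair these libraries. With the replicate block 10785 genes were called in YAP5SA against EVsub, 7405 in EVsub against EV, 8943 in YAP5SA against EV and 9544 in CAMTA1 against TFE3.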
